A study of Chenopodium quinoa with 9 samples.

Results

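Leaf-only genes of quinoa (Chenopodium quinoa, a crop grown for its seed) were defined as those with a mean of at least 5 FPKM over the 3 leaf libraries and under 1 FPKM in each of the 6 root and stem libraries. FPKM is the number of fragments scaled to gene length and library size, so it compares levels between genes of different length. The rule held for 83 of the 54238 genes of the deposited tables (0.153%), and these made up 0.429% of the 19349 genes that reached the same mean in leaf. Mirrored rules gave 159 root-only and 35 stem-only genes. The members were selected on the FPKM values of all 9 libraries, so their levels in leaf against the other organs are given as a description without a test.

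Messenger RNA was profiled in whole roots, stems and leaves of a yellow bitter type of quinoa, with 3 libraries per organ. All plants were grown in the field under natural conditions, sown in early March and sampled in August. Each library was made from a pool of 10 plants, and the organs of a pool were collected together. No treatment, mutant or second genotype was part of the design, so by the labels the groups differed in organ only. A pool of whole organs averages over plants and over all cell types of the organ, and fewer expressing cells cannot be told apart from less RNA per cell.

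A leaf is the main site of photosynthesis in most plants, and its surface is sealed by a waxy epidermis with pores for gas exchange. The leaf epidermis of quinoa also carries bladder cells, swollen hairs that take up salt. Genes expressed in leaf and silent in root and stem can belong to any of these tissues, to a young or old stage of the leaf, or to a response to the surroundings. None of the 54238 identifiers was found in the RefSeq gene table of quinoa (58882 genes, assembly ASM168347v1), so no function, chromosome or sequence is given for any member, and the organ labels could not be checked against marker genes. Quinoa is a tetraploid, and a gene with a near-identical copy may have shared reads with it. The values of single members are uncertain to that extent.

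Library totals ran from 16112021 to 24846346 counts. Stem replicate 1 stood apart from the other stem libraries. Its log2 CPM values (CPM being counts per library of equal size, plus 1 before the log) correlated with theirs at r = 0.807 to 0.849 over genes, against 0.928 between stem replicates 2 and 3, 0.959 to 0.983 within root and 0.945 to 0.972 within leaf. Without stem replicate 1 the rule found 120 genes in place of 83, since a library fewer had to stay under the ceiling. The number was 117 and 119 without stem replicate 2 or 3, and 83 to 88 without any 1 root library. The FPKM values had been scaled by library sizes that were 0.773 to 0.857 times the total count in leaf, 0.839 to 1.10 times in stem and 1.10 to 1.21 times in root, which raises leaf values relative to root values. FPKM computed from the total counts gave 66 genes, 64 of them among the 83.

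A few members were abundant and most were near the threshold. The mean leaf level was at least 100 FPKM for 2 genes, at least 20 FPKM for 12 and under 10 FPKM for 48. The median of the members was 8.43 FPKM (quartiles 6.53 and 14.0), compared with 15.0 FPKM (8.53 and 32.8) for all 19349 genes of at least 5 FPKM in leaf. Summed over the 83 genes, the level was 1335 ± 275 CPM of the total count in leaf (SD, n = 3), 21.0 ± 9.38 CPM in stem and 8.20 ± 2.95 CPM in root. The 2 most abundant genes held 39.1% of the member reads in leaf replicate 1, 11.1% in replicate 2 and 39.3% in replicate 3.

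**Figure D1:**
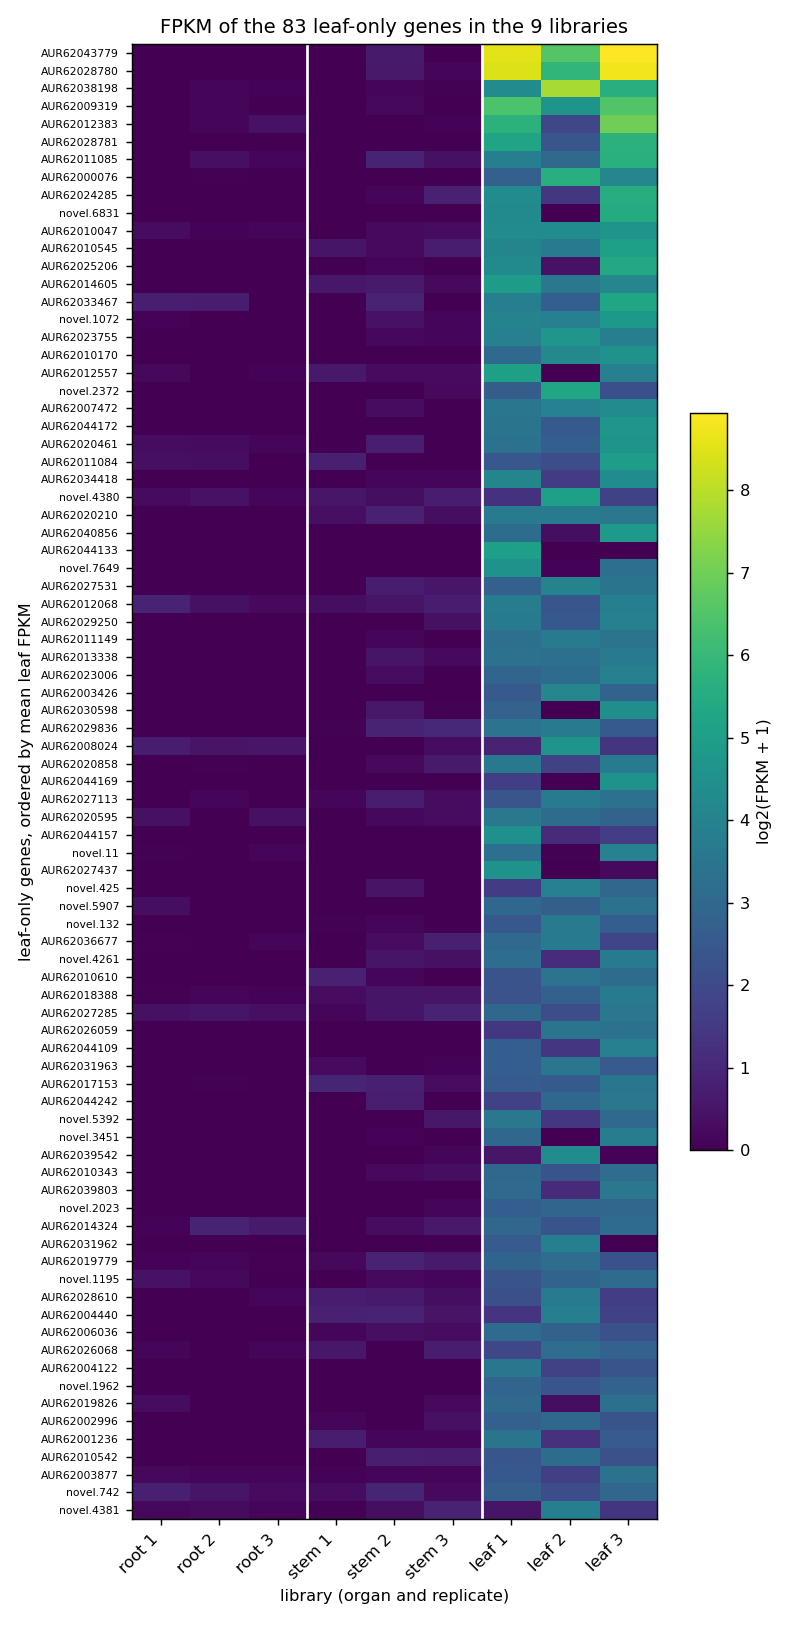
Level of each of the 83 leaf-only genes (rows, ordered by mean leaf FPKM) in the 9 libraries (columns), as log2(FPKM + 1). Root and stem columns are dark because the rule asked for under 1 FPKM there, while the 3 leaf columns differ among themselves, with 7 genes at 0 in leaf replicate 2 and none at 0 in leaf replicate 1.

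AUR62043779 had the highest level, at 379, 92.8 and 489 FPKM in leaf replicates 1, 2 and 3 (mean 320 ± 205). It had no read in any root library and 12 reads in stem replicate 2 alone (0.546 FPKM). The gene was thus high in leaf replicates 1 and 3 and lower in replicate 2, and its counts there (5669, 1829 and 9224) leave little room for counting error, with an exact Poisson 95% interval of 88.6 to 97.2 FPKM in replicate 2. Such intervals cover counting error only.

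AUR62028780 followed at 348, 58.1 and 427 FPKM in the leaf libraries (278 ± 194), with no read in root, 7 reads in stem replicate 2 and 2 in stem replicate 3. AUR62028781, which carries the next number, had the same order at 36.0, 4.20 and 52.6 FPKM (30.9 ± 24.6) and no read in any root or stem library. AUR62009319 was at 83.5, 23.8 and 89.1 FPKM (65.5 ± 36.2), with 2 reads in root and 3 in stem. All 4 genes were lowest in leaf replicate 2, by at least 2-fold against both others.

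AUR62012383 showed the same order with a wider range, at 53.1, 2.78 and 128 FPKM (61.4 ± 63.2). AUR62011085 was high in replicate 3 alone, at 13.6, 7.43 and 49.7 FPKM (23.6 ± 22.8). Among the 8 most abundant members, 2 had the opposite profile. AUR62038198 was at 19, 217 and 47.8 FPKM (94.8 ± 107) and AUR62000076 at 5.61, 48.3 and 16.7 FPKM (23.6 ± 22.2), both highest in leaf replicate 2. Both had at most 3 reads in each of root and stem as a whole.

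The leaf libraries therefore did not differ by a common factor over these genes. Leaf replicate 2 was at least 2-fold below both other leaf libraries for 30 of the 83 members, and at least 2-fold above both for 13. The same held for 5.05% and 2.67% of all 19349 genes of at least 5 FPKM in leaf. The other leaf libraries also stood apart. Replicate 3 was at least 2-fold below both others for 5 members and above both for 16 (1.49% and 0.718% of the larger set). Replicate 1 was so for 10 and 6 members (0.904% and 0.791%). These genes overlap with those set apart by replicate 2. In the group of 30, the summed FPKM was 1228, 218 and 1630 in replicates 1, 2 and 3. In the group of 13 it was 54.3, 473 and 96.2. The 40 other members summed to 340, 350 and 481 FPKM and had similar totals in replicates 1 and 2. The groups were formed from the values they describe, with 1 library on a side, so no test was made.

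**Figure D2:**
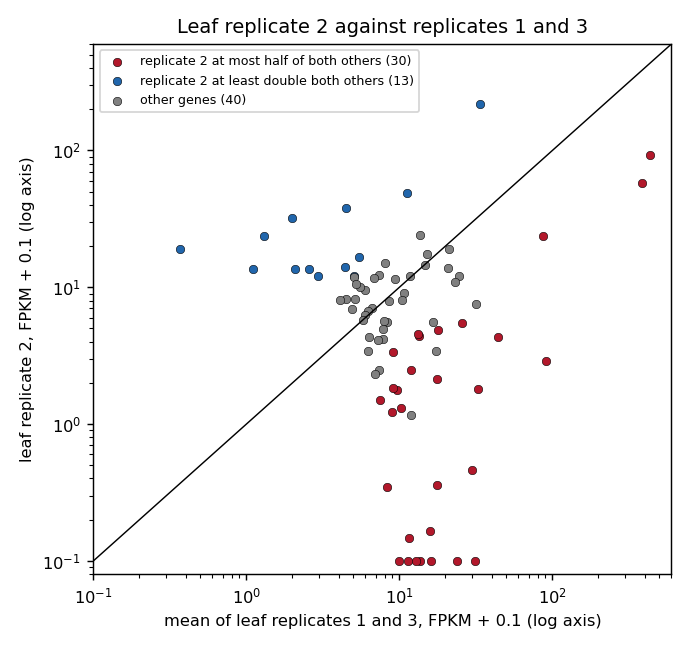
Level of each leaf-only gene in leaf replicate 2 (vertical) against the mean of leaf replicates 1 and 3 (horizontal), both as FPKM + 0.1 on log axes, with the line of equality. The 30 genes in red lie below the line, the 13 in blue above it, and 40 in grey had leaf replicate 2 within 2-fold of at least 1 of the other leaf libraries or between them.

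Spread between the leaf pools was wide for most members. The coefficient of variation (SD over mean) across the leaf libraries had a median of 0.669 (quartiles 0.429 and 0.991), while that of all genes of at least 5 FPKM in leaf had a median of 0.181 (0.108 and 0.293). Of the 83 members, 74 lay above the upper quartile of that larger set and 4 below its median. The highest and lowest leaf library differed at least 2-fold for 69 members (83.1%), and for 17.9% of the larger set. All 3 leaf libraries reached 5 FPKM for only 23 members (27.7%, against 87.5%). The level reached 5 FPKM in exactly 2 libraries for 44 members and in exactly 1 for 16. Among these 16, the highest library held from 49.8% (AUR62010542) to 100% (AUR62044133) of the summed leaf FPKM. Members were of lower level than the larger set, and the part of level in the difference of spread was not tested.

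**Figure D3:**
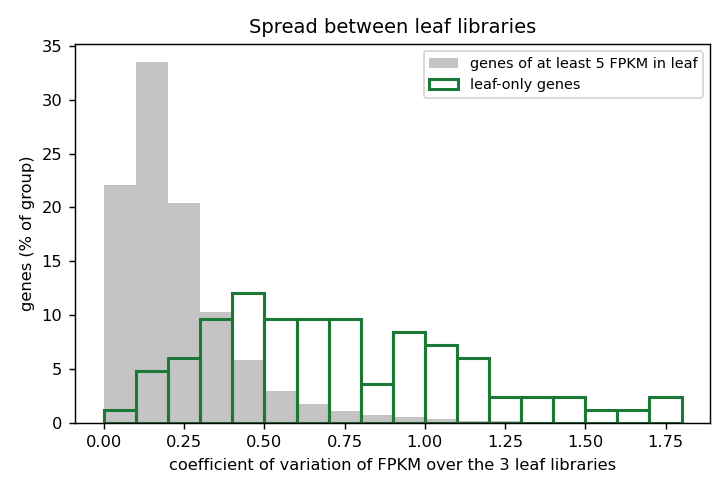
Distribution of the coefficient of variation of FPKM over the 3 leaf libraries, as a percentage of genes per bin of 0.1, for the 83 leaf-only genes (green outline) and the 19349 genes of at least 5 FPKM mean in leaf (grey). The medians are 0.669 and 0.181.

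The 4 most uneven genes of at least 10 FPKM each had a single high leaf library, and 1 of them had no read in the others. AUR62044133 had 184 reads in leaf replicate 1 (31.8 FPKM) and 0 in all other libraries, so its place among the members rests on that library. A 0 allows up to 3 counts (a one-sided 95% limit, unlike the two-sided intervals given above), which corresponds to 0.394 and 0.411 FPKM in leaf replicates 2 and 3. AUR62011084 was at 4.34, 3.29 and 30.1 FPKM in the leaf libraries (12.6 ± 15.2), high in replicate 3 alone like AUR62011085, its neighbour by number. The remaining 2 of the 4 most uneven genes had non-AUR62 identifiers and were high in replicate 2 alone, one at 1.46, 31.9 and 2.31 FPKM and the other at 5.19, 37.9 and 3.51 FPKM. The highest non-AUR62 member of all was at 18.2, 0 and 43.8 FPKM, with no read in root or stem.

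At the other end were members of nearly the same level in every leaf pool. AUR62020210 was at 12.2, 12 and 11 FPKM (11.8 ± 0.621). AUR62010047 was at 18.7, 19 and 23.4 FPKM (20.4 ± 2.63). AUR62011149 lay at 8.88, 11.5 and 9.73 FPKM (10.0 ± 1.32) and AUR62013338 at 8.97, 8.93 and 12.1 FPKM (10.0 ± 1.83). These 4 genes had the smallest spread of the 35 members of at least 10 FPKM. AUR62010047 had reads in all 3 root libraries (7, 2 and 3) and in 2 of 3 stem libraries (5 and 10), whereas the other 3 had none in root.

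To read the rule in libraries it had not used, it was applied to 2 pools at a time and the left-out pool was then examined. Pools 1, 2 and 3 were left out in turn, which gave 118, 128 and 128 chosen genes. In the left-out pool, the leaf library reached 5 FPKM for 64.4%, 43.8% and 57.0% of them. Root stayed under 1 FPKM for 94.1%, 97.7% and 96.1%, and stem for 72.0%, 69.5% and 64.8%. All 3 conditions were met by 52 genes (44.1%), 34 genes (26.6%) and 49 genes (38.3%), while 0.655%, 0.588% and 0.396% of all 54238 genes met them in those pools alone. Leaf was the highest of the 3 organs for 85.6%, 83.6% and 78.9% of the chosen genes. Over all 54238 genes in the same pools, leaf reached 5 FPKM for 35.1% to 35.4%, root was under 1 FPKM for 42.6% to 44.2%, stem for 43.8% to 44.4%, and leaf was highest for 23.7% to 28.4%. Root under 1 FPKM recurred for the largest share of the chosen genes. The genes had been chosen for these conditions in the other pools, whereas the shares over all genes carry no such choice. The 2 sets of shares are therefore not like for like. Pool 2 had the smallest share with a leaf level of 5 FPKM.

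**Figure D4:**
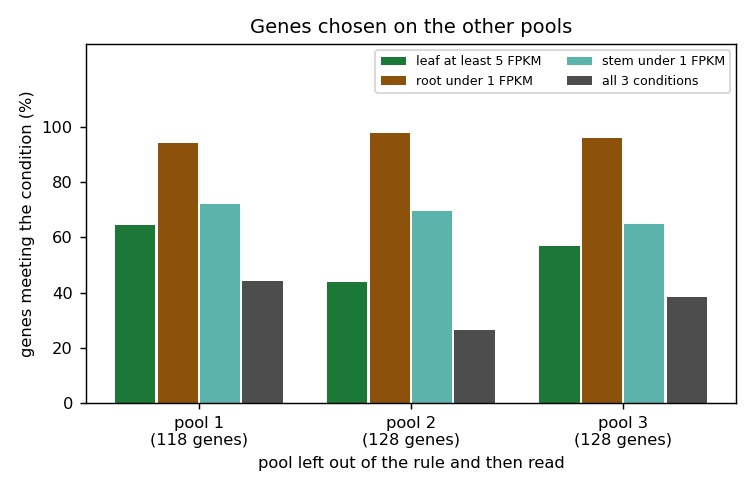
Percentage of genes that met each condition of the rule in a pool that had not been used to choose them, for pools 1, 2 and 3 left out in turn (118, 128 and 128 genes). Root bars are highest (94.1% to 97.7%), stem bars lie between 64.8% and 72.0%, and the bars for all 3 conditions between 26.6% and 44.1%.

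Below the ceiling of 1 FPKM, root and stem were not alike. A total of 49 members had no read in any root library, 18 had none in any stem library and 15 had none in both. Reads occurred in stem alone for 34 members, in root alone for 3 and in both organs for 31. A read was found for 24, 25 and 22 members in root replicates 1, 2 and 3, and for 27, 51 and 52 in stem replicates 1, 2 and 3. The members together took 10.9, 8.71 and 5.02 CPM of the total count in root and 10.2, 26.8 and 26.0 in stem. Stem replicate 1 was thus at the level of root, and stem replicates 2 and 3 were above all root libraries. The log2 CPM values of stem replicates 2 and 3 also correlated with leaf libraries at 0.861 to 0.892 over all genes tested, and those of stem replicate 1 at 0.75 to 0.777. Its part in the low stem levels of the members was not tested.

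**Figure D5:**
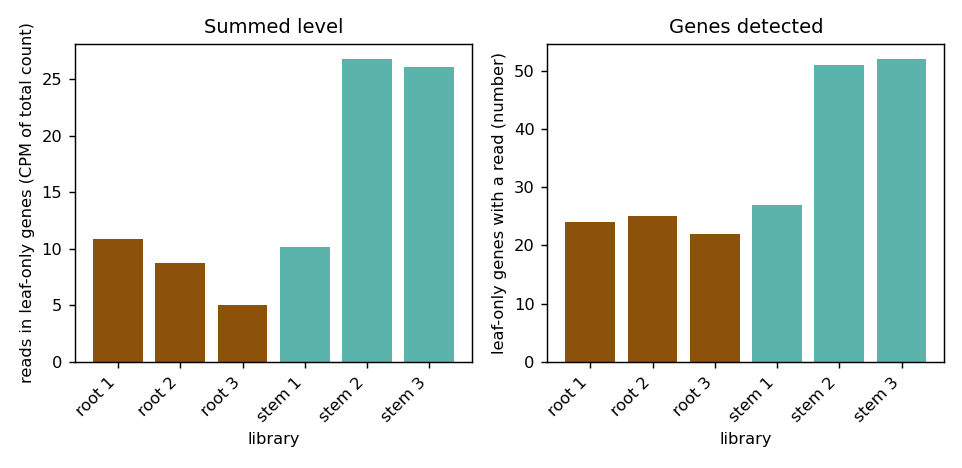
Summed level of the 83 leaf-only genes in reads scaled to the library total (CPM, left) and the number of these genes with at least 1 read (right) in each root library (brown) and stem library (turquoise). Stem replicates 2 and 3 stand at 26.8 and 26.0 CPM with 51 and 52 genes detected, and stem replicate 1 at 10.2 with 27 genes, close to root.

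Of the 15 members silent in both organs, the 4 most abundant were AUR62028781, the non-AUR62 gene already described at 18.2, 0 and 43.8 FPKM, AUR62010170 and AUR62044172. AUR62010170 was at 7.29, 17.4 and 22.9 FPKM in leaf (15.9 ± 7.91) and AUR62044172 at 9.73, 4.80 and 25.7 FPKM (13.4 ± 10.9). Over the 83 members a count of 3 in a root or stem library corresponds to a median of 0.150 FPKM, so a 0 there allows a level of about that size. At the opposite end, 8 members had reads in all 6 root and stem libraries. The mean stem level was a median of 1.26% of the mean leaf level (range 0 to 11.4%), and the mean root level a median of 0 (up to 8.54%). The ratio of stem to leaf was therefore not common to the members. Among those with a stem read it went down to 0.0274%.

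The comparison of stem with root was the only contrast between organs that the rule did not use, except that it capped both organs at 1 FPKM. Of the 83 members, 68 had enough counts to be tested, most of them through their leaf counts, since only 6 passed without the leaf libraries. The rule had made leaf high and capped root and stem, so the shares below describe each fit. They are not a test of the members against other genes. The 11 genes called higher in stem were 16.2% of them, and 12.6% of all 36685 genes tested were called higher (edgeR quasi-likelihood test, Benjamini-Hochberg adjusted p below 0.05). In this fit the share was near the background. With DESeq2 it was 30.9% against 18% of all genes, and with limma on log2(FPKM + 1), which compresses values under 1 FPKM, 0% against 10.5%, so the share of members against the background depended on the tool. Without the filter the same 11 genes were called (13.3% of 83, against 9.3% of all genes). In a fit of stem and root alone 6 members passed the filter and 0 were called higher, against 9.1% of all genes. No member was called lower in stem, while 9.27% of all genes were, and no member was lower at an unadjusted p below 0.05 or was called lower by DESeq2 or limma. At an unadjusted p below 0.05 (edgeR), 21 of the 68 members (30.9%) and 21.1% of all genes were higher, and 16% of all genes were lower. All stem libraries lay above all root libraries for 14 of the 68 members with a read in either organ (20.6%, against 16.4% of all genes with such a read), and all root libraries lay above all stem libraries for 1 (1.47%, against 20.5%). Root above stem could not occur for the 34 members with reads in stem alone, nor could a call lower in stem. The low shares of these outcomes were thus partly fixed by the low counts. Without stem replicate 1, 13 of 80 members tested (16.2%) were called higher and 0 lower, against 14.4% and 12% of all genes.

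AUR62029836 had the largest fitted change toward stem. It had 0 reads in each root library and 1, 26 and 41 in stem replicates 1, 2 and 3 (0.0371, 0.845 and 0.973 FPKM). The stem mean, not each stem library, was 6.55 times the level of 3 counts per root library (adjusted p = 0.0266 for stem against root, edgeR). The leaf libraries stood at 9.65, 12.2 and 4.77 FPKM. The call was lost with the replicate number as a block (adjusted p = 0.0738, edgeR) and in both limma fits. It was also lost without any 1 root library or stem replicate 2 or 3. Adjusted p ran from 7.42e-05 (DESeq2) to 0.218 (limma on log2(FPKM + 1)) over the 17 alternatives that tested the gene. In the fit of stem and root alone it was not tested.

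AUR62014605 had 0 reads in root and 18, 23 and 9 in stem (0.507, 0.568 and 0.162 FPKM). Its stem mean was 5.73 times the level of 3 counts per root library (adjusted p = 0.0109 for stem against root, edgeR). Its leaf values were 29.4, 10.9 and 16.5 FPKM. All 3 stem libraries had reads, and its call was lost in 1 of the 17 alternatives that tested it, limma on log2(FPKM + 1). The fit of stem and root alone, which does not use leaf, did not test it. AUR62010542 had 0 reads in root and 0, 19 and 24 in stem. Its stem mean was 4.19 times the level of 3 counts per root library (adjusted p = 0.0457 for stem against root, edgeR). The call was lost in 11 of the 17 alternatives that tested the gene, among them the replicate block (adjusted p = 0.0957, edgeR). AUR62010542 was likewise not tested with stem and root alone. It was the only called gene without reads in every stem library.

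The called genes included 7 with no read in root. For these the stem mean was 2.96 to 6.55 times the level of 3 counts per root library, a ratio that leaves out the error of the stem mean. The called genes also included AUR62020210, the member of most even leaf level among those of at least 10 FPKM. It had 5, 15 and 7 reads in stem, with a ratio of 2.96 (adjusted p = 0.00585 for stem against root, edgeR). AUR62017153 had 1 read in root and 28, 25 and 11 in stem (adjusted p = 0.00497, edgeR), the smallest p among the members. Both AUR62020210 and AUR62017153 passed the filter through their leaf counts and were not tested with stem and root alone. No member was called in that fit. Stem stood at 1.98% to 11.4% of the leaf level in the 11 genes, and none had a non-AUR62 identifier. The reverse order, with all root libraries above all stem libraries, was found in AUR62008024, a gene named for this after its values were seen. It had 18, 13 and 13 reads in root, 0, 0 and 10 in stem, and 0.867, 23.7 and 1.53 FPKM in leaf.

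Features that the rule did not use were compared with all genes as a description. Non-AUR62 identifiers made up 17 of the 83 members (20.5%), 17.4% of all genes and 7.38% of the genes of at least 5 FPKM in leaf. Members were shorter, with a median gene length of 983 bp (quartiles 639 and 1542) against 1394 bp (906 and 2086) for the genes of at least 5 FPKM in leaf. The length was taken from the ratio of count to FPKM. A short gene needs fewer reads to reach 5 FPKM, and 1 read in a short gene weighs more against the ceiling. The total of leaf reads per member ran from 58 to 16722 with a median of 509. The 30 members low in leaf replicate 2 had a median length of 782 bp, the 13 high in it one of 1165 bp and the 40 others one of 1275 bp. Reads in stem were found for 20 of the 30, 11 of the 13 and 34 of the 40. Of the 11 genes called higher in stem, 0 were among the 30, 2 among the 13 and 9 among the 40. This split is not independent of how the groups were formed. The fit used a single estimate of spread per gene over all organs, and the 30 and the 13 were formed for uneven leaf libraries. Of the 11 called genes, 9 had a leaf coefficient of variation below the median of the members.

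Some members had adjacent numbers, and the count that scattered genes would give was not computed. Among 44775 pairs of consecutive AUR62 numbers, 3 consisted of members only, and 1 of 9461 pairs of non-AUR62 numbers did. The pairs were AUR62028780 with AUR62028781, AUR62011084 with AUR62011085, and AUR62031962 with AUR62031963. No run of 3 or more occurred. In the first pair both genes were lowest in leaf replicate 2, and in the second both were highest in replicate 3. AUR62031962 was at 4.96, 13.4 and 0 FPKM and AUR62031963 at 5.4, 10.4 and 4.86 FPKM, both highest in replicate 2. The non-AUR62 pair was at 1.46, 31.9 and 2.31 FPKM and at 0.412, 13.4 and 1.6 FPKM, again both highest in replicate 2. Of the 126 AUR62 genes that flanked a member by number without being one, 35.7% reached 5 FPKM in leaf, against 40.0% of all AUR62 genes. Of the 32 flanking non-AUR62 genes, 21.9% did, against 15.1% of all non-AUR62 genes. Whether adjacent numbers mean adjacent places in the genome was not examined.

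The threshold cut through a continuous range of levels. The 2 members of lowest leaf mean, both non-AUR62, stood at 5.13 and 5.21 FPKM, and the nearest genes outside just under 5 FPKM (AUR62030606, at 6.64, 8.17 and 0.177 FPKM in leaf) and at 4.96 FPKM. There were 14 members of 5 to 6 FPKM and 34 genes of 4 to 5 FPKM under the same ceiling. The highest value in a root or stem library was 0.973 FPKM in AUR62029836 and 0.912 FPKM in AUR62017153. AUR62003236 fell outside for 1.01 FPKM in stem replicate 3, at 19.3, 25.9 and 29.2 FPKM in leaf. A non-AUR62 gene fell outside for 1.01 FPKM in root replicate 1, at 49.7, 0 and 13.8 FPKM in leaf.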

How the data were processed

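The authors deposited raw read counts per gene and FPKM values, per the file headers. The submitters' processing notes name TopHat2 2.0.12 and Bowtie2 2.0.6. For the counting tool, the build and strandedness, the information was not given in the sources used. Count divided by FPKM gave whole gene lengths within 0.01 bp for 100% of 46576 genes with a count. All columns belonged to a sample.

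Members were found on the deposited FPKM. Counts were tested with edgeR 4.0.16 (R 4.3.3): filterByExpr, TMM factors, and a robust quasi-likelihood fit of organ to all 9 libraries, adjusted over 36685 genes. CPM is TMM-normalised, except that sums over members are CPM of the total count. DESeq2 1.42.0, limma 3.58.1 (log2 of FPKM with a pseudocount of 1 or 0.1), other factors, filters and left-out libraries were alternatives. Per the labels' protocols, the organs of a replicate came from the same pools, so the number was taken to pair libraries, although deviations of same-numbered libraries from their organ means correlated over genes at -0.240 to 0.118 only. The procedure was also run on simulated counts, in which each gene had the same mean in all organs, apart from genes changed between stem and root. No gene was set high in leaf with root and stem near 0, so that run does not check the calls of members. P-values rest on the spread between pools, estimated per gene over all organs of a fit. Except in the fit of stem and root alone, that spread includes the leaf pools.

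Named genes were those of highest leaf level, silent in root and stem, most and least even in leaf, called between stem and root, and nearest the thresholds. Members, lists and rules were chosen with earlier results of these data known. Planned lists by product description were not applied, since no identifier matched.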

Additional observations from a re-analysis of the deposited data

How the results depend on the processing

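The number of leaf-only genes followed its thresholds. It was 295 with a leaf mean of at least 2 FPKM, 35 with at least 10 FPKM, 23 when every leaf library had to reach 5 FPKM, 49 with a ceiling of 0.5 FPKM, 194 with one of 2 FPKM, 15 with 0 counts in root and stem, and 44 (33 of them among the 83) with at least 10 CPM in leaf and under 1 CPM elsewhere. Leaving out a library or a pool gave 80 to 128 genes. TMM library sizes gave 84 and the leaf median 73. The members higher in stem than in root numbered 21 with DESeq2 (30.9% of those tested, against 18% of all genes), 0 with stem and root alone (only 6 members were then tested; 9.1% of all genes), 0 with limma on log2(FPKM + 1) (10.5% of all genes), 7 with limma on log2(FPKM + 0.1) (10.3% against 11.5%), and 5 to 13 when a library was left out (5 without root replicate 1, or 6.25% against 6.72%, and 6 without root replicate 2 or 3, or 7.5% against 6.24% and 7.89%). With the replicate block 9 of 68 were higher (13.2% against 8.64%), 8 of them among the 11, and none lower. No alternative called a member lower. The cause of these changes was not tested, except that fewer samples or genes enter some fits. Of the 3 named genes called in stem against root, 31 of 51 combinations with an alternative kept the call, 20 lost it and 0 reversed. The 51 leave out the fit of stem and root alone, in which none of the 3 genes was tested. Over 78 cases of a leaf library left out, the mean leaf level moved by over 1.5 times in 12 of the 26 named members. That of AUR62044133 fell from 10.6 to 0 FPKM without leaf replicate 1. With FPKM from total counts it moved beyond 1 SD for the 4 most even genes. Scaling, examined after the data were seen, left 28 to 32 members low and 13 to 15 high in leaf replicate 2. Depth limits the root and stem values, where most members had few or no reads.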
